A study of Mus musculus with 6 samples.

Results

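The glycolysis and hypoxia response genes described here are 37 of the 53801 genes quantified in CT26 cells. They were taken from a list of gene symbols and encode the transporters of glucose and lactate, the enzymes of glycolysis, the pyruvate dehydrogenase kinases, and hypoxia-inducible factor (HIF) with genes that it is known to control. Each symbol matched an Ensembl identifier, and Aldoa matched a second identifier with 57 to 89 expected counts per library that was left out. Of the 37 genes, 32 could be tested in each of the 3 comparisons. The other 5, Adm, Egln3, Ldhb, Pdk4 and Slc2a3, had too few counts.

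RNA-seq was used to measure mRNA in 3 groups with 2 libraries each, named A and B. CT26 is a colon carcinoma line from BALB/c mice. The parental group was a bulk population of barcoded CT26 cells that had been recovered from established tumors and cultured, which per the study's methods makes it a control that has passed through a mouse. B04 and B64 were each expanded from a single cell of such a population, and carried barcodes that anti-PD1 and anti-CTLA4 treatment enriched in vivo. Both were isolated as lines resistant to immune checkpoint blockade (ICB), in which antibodies release the brakes on T cells. All 3 groups therefore carried the barcode vector, had grown in a mouse, and were kept in RPMI medium. Per the study's methods, cells recovered from tumors were first selected with puromycin in culture. No other treatment is stated for the RNA-seq cultures. The study states that the clones were picked from tumors that had been through ICB, so differences present before that treatment and differences induced by it cannot be told apart. Each resistant group is a single clone, so a difference that belongs to resistance and a difference that belongs to that clone cannot be told apart. The sample titles call the samples tumors, whereas the study's methods describe cultured lines. Nothing in the labels says that libraries A and B came from separate cultures, so the p-values measure only the spread between libraries, which may be technical. The oxygen level and the cell density at harvest are not given in the sources used here.

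Library totals ranged from 19409204 to 23472012 expected counts. Leukocyte markers summed to 0.24 to 0.67 TPM (transcript abundance scaled for gene length and library) in every library, with Cd3e and Cd8a at 0, and endothelial markers summed to at most 0.1 TPM. Of 6 erythroid markers, Hba-a2 alone passed 1 TPM in any library, and the list summed to 0.09 to 2.69 TPM. Of 7 epithelial markers, Krt18 and Krt20 passed 1 TPM and Vil1 was at 0. Their sum was 45.7 to 48.0 TPM in B64, above the 22.4 to 25.4 TPM of the other 4 libraries. Mesenchymal markers summed to 4020 to 4367 TPM in B04, 3053 to 3129 TPM in B64 and 2635 to 2651 TPM in parental. Vim made up most of that sum and was highest in B04, at 3421 and 3799 TPM, whereas Fn1 was highest in B64 and Cdh2 in parental. Fragment length was longer in both parental libraries and B04 replicate A, where gene length exceeded effective length by 271.8 to 277.3 bases, than in B04 replicate B and both B64 libraries, where it did so by 220.8 to 246.2 bases. Parental and B64 libraries thus lay in different fragment-length classes. The part that marker levels have in the results below was not tested.

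Glycolysis turns glucose into pyruvate, and many cancer cells run it fast even in the presence of oxygen, exporting much of the carbon as lactate. When oxygen is short, prolyl hydroxylases stop marking the HIF alpha subunits for destruction. HIF then binds short DNA elements and raises transcription of glucose transporters, of nearly all glycolytic enzymes, and of genes for pH control, mitophagy and growth restraint. HIF activity is set mainly at the protein level, which RNA-seq does not measure.

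The question was how the mRNA of these genes differed between each ICB-resistant clone and the parental line, and between the clones. Glycolytic genes were mostly higher in B64 than in the other lines. In B04 relative to parental, 13 of the 32 tested members passed a DESeq2 adjusted p of 0.05 (called from here on), 5 higher and 8 lower, against 24.1% of all 13218 genes tested, 11.2% higher and 12.9% lower. In B64 relative to parental, 22 were called, 20 higher and 2 lower, against 16.3% of all genes, 8.87% higher and 7.45% lower. Compared directly, 20 were called, 17 higher and 3 lower in B64 than in B04, against 24.3% of all 12855 genes tested, 13.1% higher and 11.1% lower. An absolute log2 fold change of at least 0.5 was reached by 5, 7 and 8 of the called members in these comparisons, and by called genes making up 9.04%, 6.57% and 9.67% of all genes tested. The median log2 fold change of the tested members was -0.06, 0.22 and 0.33 in these 3 comparisons, beside 0.0019, -0.0024 and 0 for all genes. Most members are abundant, and abundant genes are called more often. Among the 4745 genes that averaged 1000 or more normalized counts, 38% were called in B04 relative to parental, 25.2% in B64 relative to parental and 38.2% between the clones. The 24 members at that level had 45.8%, 79.2% and 75% called. In B04 relative to parental, 14.3% of these abundant genes were called higher and 23.7% lower, and of the 24 members 5 were higher and 6 lower. In B64 relative to parental, 13% were called higher and 12.1% lower, and of the 24 members 18 were higher and 1 lower. The share in B04 was thus near that of all genes averaging 1000 or more normalized counts, and the shares in both comparisons of B64 were above it. That background is matched only by its lower limit, and some members lie far above it, such as Gapdh at 67594 and Pkm at 61937. The part that such abundance has in the shares was not tested. Both comparisons with the parental line use the same parental libraries, so they are not independent of each other.

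**Figure D1:**
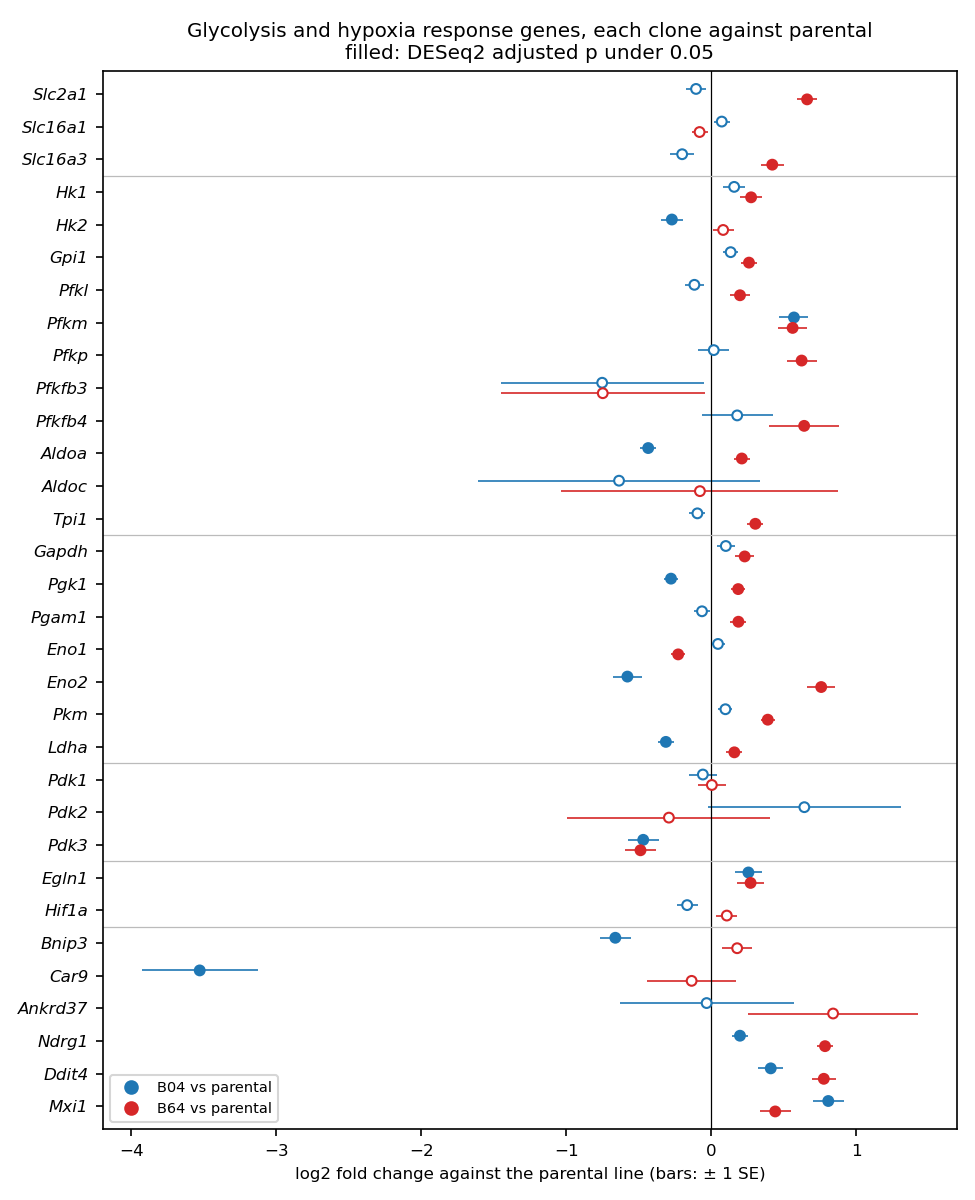
Log2 fold change of the 32 tested members in B04 (blue) and B64 (red) relative to the parental line, with bars of 1 standard error (SE), filled where the DESeq2 adjusted p is under 0.05. Grey lines separate transporters, upper glycolysis, lower glycolysis, pyruvate dehydrogenase kinases, HIF with Egln1, and other hypoxia response genes. Car9 in B04 lies farthest from 0, at -3.53, and most red points of the glycolytic genes lie to the right of the blue ones.

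The comparison of B64 with the parental line depended most on the fit. Both parental libraries were long-fragment and both B64 libraries short-fragment. Line and class could therefore be told apart there only through the difference between the B04 libraries. With fragment-length class as a block, Pfkp gave 0.64 (SE 0.21) in place of 0.62 (SE 0.10), and Gapdh 0.018 (SE 0.09) in place of 0.23 (SE 0.06). The members called with this block numbered 5, Slc2a1, Eno2, Pkm, Ndrg1 and Ddit4, all higher in B64, beside 2.64% of all genes. Of the fits that left out a library, those without parental replicate A or B64 replicate B lowered this count most. The share of all genes called fell there too. The counts were steadier in the other comparisons, though the shares of all genes were not. With the same block, 11 members were called in B04 relative to parental and 18 between the clones, beside 12.8% and 13.4% of all genes. Leaving out B04 replicate B leaves only long-fragment libraries in B04 relative to parental. Leaving out B04 replicate A leaves only short-fragment libraries between the clones. In both fits the count of members fell less, in proportion, than the share of all genes. Using the effective lengths as an offset gave 3 higher and 8 lower members in B04, beside 19.8% of all genes called.

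**Figure D2:**
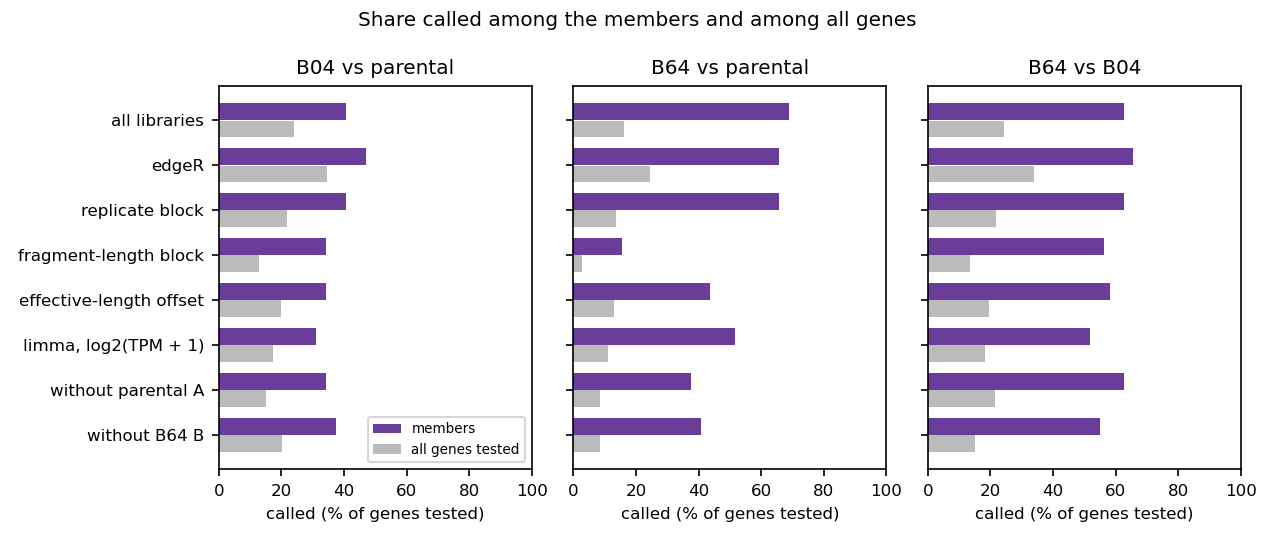
Share of tested members (purple) and of all tested genes (grey) called, in percent, in each comparison and under 8 settings of the fit. In B64 relative to parental the share of members is lowest with the fragment-length block, where 5 of 32 are called beside 2.64% of all genes.

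Hif1a, the HIF alpha subunit measured here, had 4764 and 4536 normalized counts in parental, 4309 and 3979 in B04 and 4742 and 5276 in B64. Levels in B04 lay below both other lines, whereas B64 overlapped the parental line. Its log2 fold change was -0.17 (SE 0.07, adjusted p = 0.081) in B04 and 0.11 (SE 0.07, adjusted p = 0.38) in B64, and it was 0.27 (SE 0.07, adjusted p = 0.0013) higher in B64 than in B04. That last call was lost without B04 replicate B (log2 fold change 0.22, adjusted p = 0.094) and without B64 replicate B (0.19, adjusted p = 0.16). Egln1, the main prolyl hydroxylase that targets HIF alpha, was called higher in both clones, by 0.26 (SE 0.09, adjusted p = 0.023) in B04 and 0.27 (SE 0.09, adjusted p = 0.021) in B64. Leaving out any of several libraries ended both calls, and without parental replicate A the values were 0.19 (adjusted p = 0.33) and 0.21 (adjusted p = 0.39). Egln3, a hydroxylase that HIF itself induces, did not exceed 4.56 normalized counts in any library. The HIF alpha subunit genes Epas1 and Hif3a had at most 1 count in any library, so Hif1a carried nearly all counts of that family.

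The promoters of the HIF targets outside the glycolytic enzymes with the largest differences are shown because HIF is known to act at a core element spelled ACGTG or GCGTG. These motifs were searched on both strands of RefSeq promoter windows (GRCm38.p6) from 250 bases before to 50 bases after the transcription start. Of 37 members, 35 had a window. At least 1 match was present in the first listed window of 28 of these 35 genes (80%), compared with 43.8% of 27025 genes, and ACGTG alone in 57.1% compared with 19.7%. A palindromic CACGTG counts as matches on both strands. The 27025 genes were not matched to the members in base composition or expression, and the source of the difference in shares was not tested. A match is a description of letters and not evidence of binding. The 250 bases before the start follow for Car9, Bnip3 and Mxi1, with matches in capitals; Ndrg1 had no window. Mxi1 has more than 1 start, and the windows of the start farthest upstream and of a later start are given. The order is 5′ to 3′ on the strand of the gene.
Car9, chr4:43506776-43507025, plus strand: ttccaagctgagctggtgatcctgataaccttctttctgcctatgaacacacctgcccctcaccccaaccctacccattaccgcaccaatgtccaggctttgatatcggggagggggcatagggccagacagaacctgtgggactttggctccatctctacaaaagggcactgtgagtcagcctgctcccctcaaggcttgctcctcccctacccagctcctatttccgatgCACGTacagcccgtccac
Bnip3, chr7:138909507-138909756, minus strand: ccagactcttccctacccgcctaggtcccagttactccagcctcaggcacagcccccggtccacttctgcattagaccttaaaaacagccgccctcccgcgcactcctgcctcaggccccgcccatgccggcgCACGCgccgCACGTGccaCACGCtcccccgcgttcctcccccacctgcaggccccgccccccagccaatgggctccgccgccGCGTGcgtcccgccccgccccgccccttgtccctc
Mxi1, upstream start, chr19:53310256-53310505, plus strand: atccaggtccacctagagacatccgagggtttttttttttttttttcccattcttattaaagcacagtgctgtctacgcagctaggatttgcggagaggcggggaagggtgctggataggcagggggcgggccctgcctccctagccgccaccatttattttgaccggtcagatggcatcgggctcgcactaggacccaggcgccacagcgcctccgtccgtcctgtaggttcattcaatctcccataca
Mxi1, later start, chr19:53329163-53329412, plus strand: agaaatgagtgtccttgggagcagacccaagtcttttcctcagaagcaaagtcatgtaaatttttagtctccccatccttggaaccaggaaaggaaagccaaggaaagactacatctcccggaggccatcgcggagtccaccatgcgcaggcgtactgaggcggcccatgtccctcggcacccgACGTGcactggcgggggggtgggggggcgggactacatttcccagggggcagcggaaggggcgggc
The single Car9 match begins 18 bases before the start, on the minus strand. Bnip3 has 5 matches in 4 stretches, beginning 117 to 35 bases before the start. The upstream Mxi1 window has no match, and the later one has an ACGTG that begins 66 bases before the start.

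Car9, a carbonic anhydrase at the cell surface that helps cells export acid and is a common marker of hypoxia, is on chromosome 4 (43506966 to 43513729, plus strand, GENCODE M21 on GRCm38). It had 156.4 and 151.5 normalized counts in parental, 19.2 and 7.13 in B04 and 125.7 and 154.5 in B64. B04 was therefore far below both other lines, which overlapped. In bulk RNA, fewer cells with Car9 mRNA and less of it per cell cannot be told apart. The level was 11.5-fold lower in B04 than in the parental line (log2 fold change -3.53, SE 0.40, adjusted p = 1.0e-16) and 10.5-fold higher in B64 than in B04 (3.39, SE 0.40, adjusted p = 1.7e-15). B64 relative to parental gave -0.13 (SE 0.30, adjusted p = 0.85). Car9 was called in B04 in all 18 alternatives, but the size of the difference depended on the library and the scale. It was -4.44 without B04 replicate A, -3.01 without B04 replicate B and -1.79 by limma on log2(TPM + 1). Between the clones it was 4.30 without B04 replicate A and 2.87 without B04 replicate B.

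Bnip3, a mitochondrial protein that promotes mitophagy, was also lowest in B04. Its normalized counts were 1179 and 1270 in parental, 830.0 and 717.6 in B04 and 1417 and 1356 in B64. B04 lay below the other lines and B64 slightly above the parental line. The log2 fold change was -0.66 (SE 0.11, adjusted p = 1.5e-08) in B04, 0.18 (SE 0.10, adjusted p = 0.28) in B64, and 0.84 (SE 0.11, adjusted p = 1.3e-13) between B64 and B04. The 3 annotated copies of Bnip3 took 1.90% to 3.81% of the summed counts.

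Ndrg1, a stress-responsive gene induced by hypoxia and differentiation, was the most abundant of the hypoxia response genes per kilobase. Its normalized counts were 11667 and 11601 in parental, 13711 and 12986 in B04 and 20901 and 19194 in B64. The 3 lines did not overlap. The log2 fold change was 0.20 (SE 0.06, adjusted p = 0.0040) in B04 and 0.78 (SE 0.06, adjusted p = 8.8e-40) in B64, and B64 exceeded B04 by 0.59 (SE 0.06, adjusted p = 1.4e-22). The call in B04 was lost without parental replicate B (0.19, adjusted p = 0.051) and without B04 replicate A (0.16, adjusted p = 0.15).

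Ddit4, which encodes the mTORC1 inhibitor REDD1, rose in both clones. It had 2027 and 2171 normalized counts in parental, 2571 and 3012 in B04 and 3554 and 3637 in B64. Again the lines did not overlap and B64 was highest. The log2 fold change was 0.41 (SE 0.08, adjusted p = 1.8e-05) in B04, 0.78 (SE 0.08, adjusted p = 5.1e-18) in B64, and 0.37 (SE 0.08, adjusted p = 0.00013) between the clones, the last not called without B04 replicate A (0.26, adjusted p = 0.057) or with fragment-length class as a block (0.26, adjusted p = 0.075).

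Mxi1, a repressor that competes with MYC for MAX, had the reverse order of the clones. Normalized counts were 746.0 and 866.0 in parental, 1351 and 1472 in B04 and 1094 and 1096 in B64. B04 was highest and the parental line lowest, with no overlap. The log2 fold change was 0.81 (SE 0.11, adjusted p = 2.0e-12) in B04, 0.44 (SE 0.11, adjusted p = 0.00068) in B64, and -0.37 (SE 0.11, adjusted p = 0.0038) for B64 relative to B04. Without parental replicate A, Mxi1 in B64 was not called (0.34, adjusted p = 0.12), and the difference between the clones was not called without B04 replicate B (-0.30, adjusted p = 0.15), B64 replicate A (-0.36, adjusted p = 0.085) or B64 replicate B (-0.37, adjusted p = 0.082). Of the remaining hypoxia response genes, Ankrd37 had 13.4 to 54.7 normalized counts and was not called in any comparison, and Adm, which encodes the vasodilator adrenomedullin, had at most 3.82. Thus the 6 tested genes of this group gave 3 higher and 2 lower in B04, 3 higher and none lower in B64, and 4 higher and 1 lower in B64 relative to B04. Their shares called were 83.3%, 50% and 83.3%, beside 24.1%, 16.3% and 24.3% of all genes tested.

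**Figure D3:**
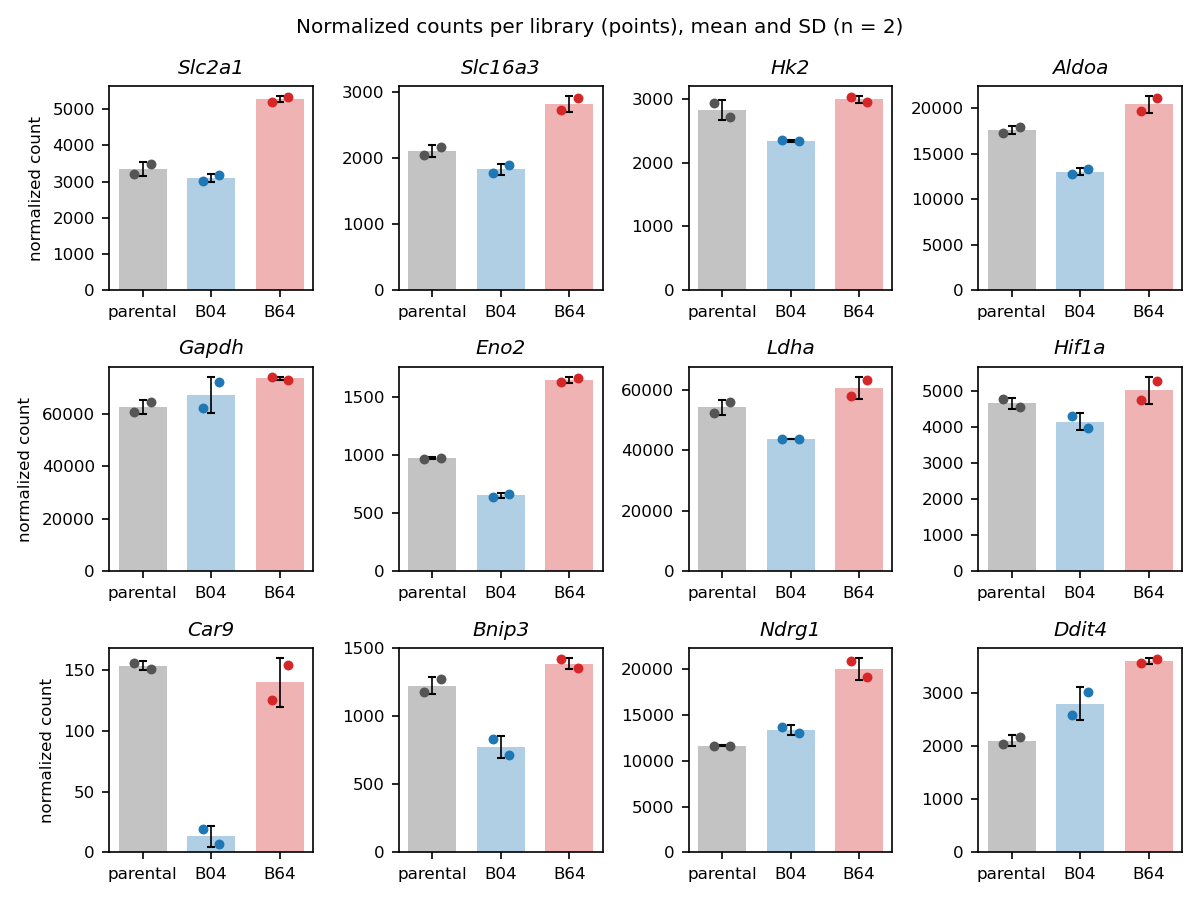
Normalized counts of 12 members in each library (points), with the mean (bar) and SD (error bar, n = 2) of the parental line (grey), B04 (blue) and B64 (red). Car9 is low in B04 alone, at 19.2 and 7.13, Eno2 and Aldoa are lowest in B04 and highest in B64, and Gapdh in B04 has libraries that lie apart.

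Among the transporters, Slc2a1 encodes GLUT1, the glucose carrier of most proliferating cells. Slc2a1 had 3198 and 3472 normalized counts in parental, 3020 and 3185 in B04 and 5208 and 5340 in B64. Both B64 libraries lay above all others, and B04 lay just below the parental line. The log2 fold change was 0.66 (SE 0.07, adjusted p = 1.1e-19) in B64 and -0.10 (SE 0.07, adjusted p = 0.31) in B04, and B64 exceeded B04 by 0.77 (SE 0.07, adjusted p = 1.3e-26). Slc2a3 (GLUT3) had at most 1 count in any library. Slc16a3, which encodes the lactate exporter MCT4, gave 2042 and 2173 normalized counts in parental, 1776 and 1894 in B04 and 2735 and 2908 in B64. It too was highest in B64, by 0.42 (SE 0.08, adjusted p = 3.4e-06) relative to parental and 0.62 (SE 0.08, adjusted p = 3.3e-13) relative to B04. For Slc16a3, B04 relative to parental gave -0.20 (SE 0.08, adjusted p = 0.052, and 0.032 by edgeR). Slc16a1, which encodes MCT1, a carrier of lactate in either direction, was 1832 normalized counts per kilobase on average, above the 1254 of Slc16a3. It went the other way between the clones (-0.15, SE 0.05, adjusted p = 0.025), a call that was lost on leaving out any library of either clone, with -0.12 (adjusted p = 0.34) without B04 replicate A.

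The hexokinases trap glucose in the cell as glucose 6-phosphate. Hk2, the inducible form, had 2934 and 2712 normalized counts in parental, 2347 and 2332 in B04 and 3029 and 2950 in B64. It was lowest in B04, with a log2 fold change of -0.27 (SE 0.07, adjusted p = 0.0018) that was not called without parental replicate A (-0.22, adjusted p = 0.11) or without B04 replicate B (-0.27, adjusted p = 0.051). B64 exceeded B04 by 0.35 (SE 0.07, adjusted p = 2.1e-05). Hk1, the constitutive form, stood at 639.5 normalized counts per kilobase and Hk2 at 503.3. Hk1 was called higher in B64 (0.28, SE 0.08, adjusted p = 0.0034), though not without B64 replicate B (0.23, adjusted p = 0.21) or without either parental library. In B04 it gave 0.16 (SE 0.08, adjusted p = 0.12, and 0.048 by edgeR), with both libraries above the parental ones, and the direct comparison of the clones gave 0.12 (SE 0.08, adjusted p = 0.30).

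Phosphofructokinase, which commits sugar to glycolysis, is built from 3 subunits, and these changed in different lines. Pfkl was the most abundant at 1405 normalized counts per kilobase, ahead of Pfkp at 448.8 and Pfkm at 366.4. The muscle-type subunit gene Pfkm had 773.7 and 790.3 normalized counts in parental, 1146 and 1178 in B04 and 1145 and 1163 in B64. The clones overlapped, and both exceeded the parental line, by 0.57 (SE 0.10, adjusted p = 2.4e-07) in B04 and 0.56 (SE 0.10, adjusted p = 7.6e-07) in B64. The platelet-type subunit gene Pfkp had 783.2 and 863.2 in parental, 837.3 and 829.6 in B04 and 1277 and 1261 in B64. Pfkp was thus higher in B64 alone, by 0.62 (SE 0.10, adjusted p = 8.9e-08) relative to parental and 0.61 (SE 0.10, adjusted p = 1.2e-07) relative to B04. It overlaps Pitrm1, whose counts ran from 2566 to 3533, and reads in the shared stretch could go to either gene. Pfkl differed between the clones by 0.31 (SE 0.07, adjusted p = 3.7e-05), and its 0.20 in B64 relative to parental (adjusted p = 0.024) was not called without parental replicate A (0.13, adjusted p = 0.42).

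Pfkfb4 makes the fructose 2,6-bisphosphate that activates phosphofructokinase. Its normalized counts were 124.0 and 117.8 in parental, 129.5 and 144.5 in B04 and 185.8 and 191.3 in B64, so B64 lay above both other lines. The call in B64 relative to parental (0.64, SE 0.24, adjusted p = 0.049) held in 3 of 18 alternatives, and leaving out any 1 library ended it, with adjusted p of 0.10 to 0.35. Pfkfb3, the other enzyme of this kind listed, had at most 29.9 normalized counts and was not called.

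Aldoa, the main aldolase, which splits the 6-carbon sugar, had 17356 and 17966 normalized counts in parental, 12819 and 13323 in B04 and 19766 and 21122 in B64. The lines did not overlap, with B04 lowest and B64 highest. Aldoa fell by 0.43 on the log2 scale in B04 (SE 0.05, adjusted p = 8.6e-14) and was 0.65 higher in B64 than in B04 (SE 0.05, adjusted p = 2.6e-30). The smaller rise in B64 relative to parental (0.21, SE 0.05, adjusted p = 0.0013) was not called without parental replicate A (0.18, adjusted p = 0.063) or B64 replicate B (0.16, adjusted p = 0.17). Aldoc, the brain-type aldolase, had 5.09 to 13.1 normalized counts. Gpi1 and Tpi1, the isomerases of upper glycolysis, were both higher in B64 than in the parental line, by 0.26 (SE 0.05, adjusted p = 3.1e-05) and 0.30 (SE 0.06, adjusted p = 1.1e-06), and Tpi1 also exceeded B04 by 0.40 (SE 0.06, adjusted p = 1.5e-11). In all, upper glycolysis gave 1 gene higher and 2 lower of 11 in B04, 8 higher and none lower in B64, and 5 higher and none lower in B64 relative to B04. The shares called were 27.3%, 72.7% and 45.5%, beside 24.1%, 16.3% and 24.3% of all genes tested. That in B04 was near the share of all genes.

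In lower glycolysis, which recovers ATP, all 7 tested genes were called in B64 relative to parental, 6 higher and 1 lower, whereas in B04 none was higher and 3 were lower. Of all genes tested, 16.3% were called in B64 and 24.1% in B04. Not all of the 7 calls in B64 were stable. Those of Eno2 and Pkm held in all 18 alternatives, Eno1 in 14, Pgk1 in 12, Gapdh and Pgam1 in 10 and Ldha in 9. Eno2, the neuronal-type enolase, showed the widest difference. It had 971.1 and 979.2 normalized counts in parental, 637.5 and 669.8 in B04 and 1632 and 1667 in B64. The lines were well apart, and Eno2 differed by -0.58 (SE 0.10, adjusted p = 2.3e-07) in B04, 0.76 (SE 0.10, adjusted p = 3.3e-13) in B64 and 1.34 (SE 0.10, adjusted p = 5.6e-39) between the clones, 2.53-fold. Eno1, the major enolase at 16384 normalized counts per kilobase compared with 677.9 for Eno2, moved the opposite way in B64. There it fell by 0.23 on the log2 scale relative to parental (SE 0.05, adjusted p = 7.7e-05), and its log2 fold change relative to B04 was -0.27 (SE 0.05, adjusted p = 4.5e-07). Both calls were lost with the effective-length offset and by limma on TPM. That relative to parental was also lost with fragment-length class as a block. Over the alternatives its change relative to parental ran from -0.26 to -0.03, and relative to B04 from -0.30 to -0.24.

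Gapdh, often used as a reference gene, was the most abundant member per kilobase. It had 60684 and 64256 normalized counts in parental, 62056 and 71931 in B04 and 73729 and 72910 in B64. The B04 libraries were spread over the gap between the other lines. The log2 fold change was 0.10 (SE 0.06, adjusted p = 0.28) in B04, 0.23 (SE 0.06, adjusted p = 0.0033) in B64, and 0.13 (SE 0.06, adjusted p = 0.13) between the clones. The rise in B64 was not called without parental replicate A (0.19, adjusted p = 0.53), B64 replicate A (0.22, adjusted p = 0.091) or B64 replicate B (0.24, adjusted p = 0.061), and the value was 0.018 with fragment-length class as a block. Gapdh TPM followed fragment length and not the lines, at 3523 to 3873 in the long-fragment libraries and 5700 to 6858 in the short-fragment ones.

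Several of these genes share sequence with annotated copies, between which RSEM has to divide reads. Gapdh has 73 such copies, which took 36.2% to 42.4% of the summed counts, with the lowest shares in B64 replicate A and B04 replicate B. For Eno1 the copies, Gm4735 and Eno1b, took 43.5% to 44.5%, and for Pgam1 they took 1.64% to 10.6%. After each member was summed with its copies, Gapdh in B64 relative to parental was 0.14 (SE 0.05, adjusted p = 0.056) and Pgam1 was 0.12 (SE 0.05, adjusted p = 0.10), neither of them called. In that sum Eno1 was still called lower in B64, at -0.21 (SE 0.05, adjusted p = 0.00026) relative to parental and -0.26 (SE 0.05, adjusted p = 3.5e-06) relative to B04. The sum does not address the dependence of Eno1 on length given above. Levels of these 3 genes on their own are therefore uncertain.

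**Figure D4:**
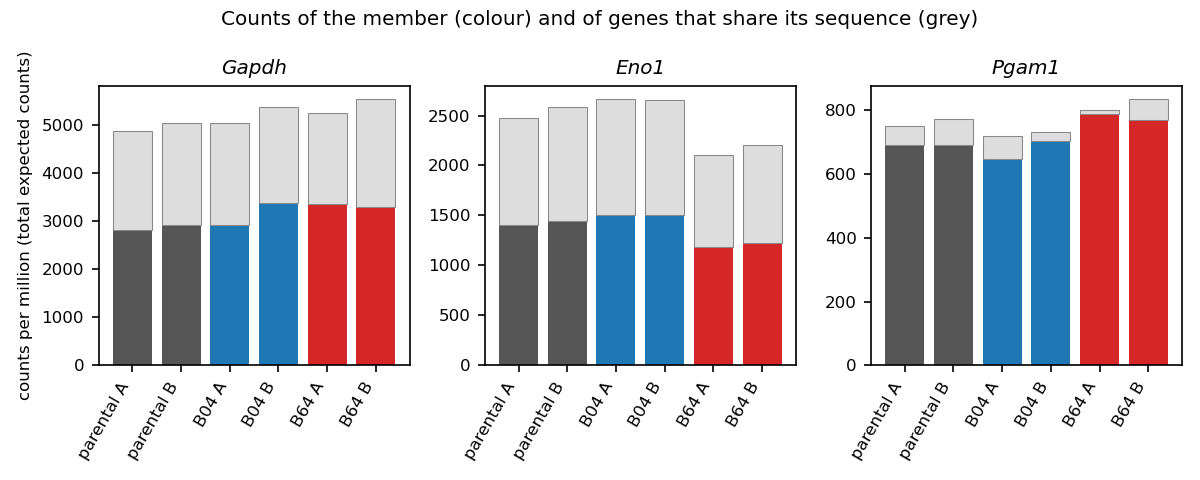
Counts, scaled to the total expected counts of the library, for Gapdh, Eno1 and Pgam1 (coloured) with those of annotated genes that share their sequence (grey) stacked on top, in each library. The grey part is 36.2% to 42.4% of the Gapdh stack and near 44% of the Eno1 stack, and it is smallest for Pgam1 in B64 replicate A, at 1.64%.

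Ldha, the lactate dehydrogenase subunit that favors lactate formation, was second to Gapdh per kilobase. Its normalized counts were 52525 and 56012 in parental, 43732 and 43669 in B04 and 57966 and 63277 in B64. B04 was lowest and B64 highest. Ldha fell by 0.31 on the log2 scale in B04 (SE 0.06, adjusted p = 3.6e-07) and was 0.47 higher in B64 than in B04 (SE 0.06, adjusted p = 8.5e-16). The difference of 0.16 between B64 and parental (SE 0.06, adjusted p = 0.028) was not called without parental replicate A (0.11, adjusted p = 0.38), B04 replicate B (0.16, adjusted p = 0.054) or B64 replicate B (0.095, adjusted p = 0.54). Ldhb, the other subunit gene, had at most 1 count in any library. Pgk1, the first ATP-yielding enzyme of the pathway, also fell in B04 (-0.28, SE 0.05, adjusted p = 6.5e-07) and was 0.46 higher in B64 than in B04 (SE 0.05, adjusted p = 1.7e-18). Pkm, pyruvate kinase, did not differ detectably in B04 (0.10, SE 0.05, adjusted p = 0.13) and rose in B64 by 0.39 (SE 0.05, adjusted p = 3.1e-14).

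Aldoa, Pgk1, Eno2 and Ldha were called lower in B04 and higher in B64, each against the same parental libraries. The calls in B04 held in 16 to 18 of 18 alternatives. Those in B64 relative to parental held in 18 for Eno2, 15 for Aldoa, 12 for Pgk1 and 9 for Ldha. With fragment-length class as a block, Eno2 alone of the 4 was called in B64 relative to parental. Each of these 4 was also called in the direct comparison, in all 18 alternatives. A direct difference follows from opposite changes against the same libraries, so it is no further evidence. Summed over 17 enzyme genes of glycolysis, the counts made up 1.41% and 1.46% of the library in the parental line, 1.37% and 1.44% in B04, and 1.62% and 1.66% in B64. With the copies included the shares were 1.73% and 1.79%, 1.71% and 1.76%, and 1.90% and 1.99%. B64 was highest on both sums, and B04 overlapped the parental line.

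**Figure D5:**
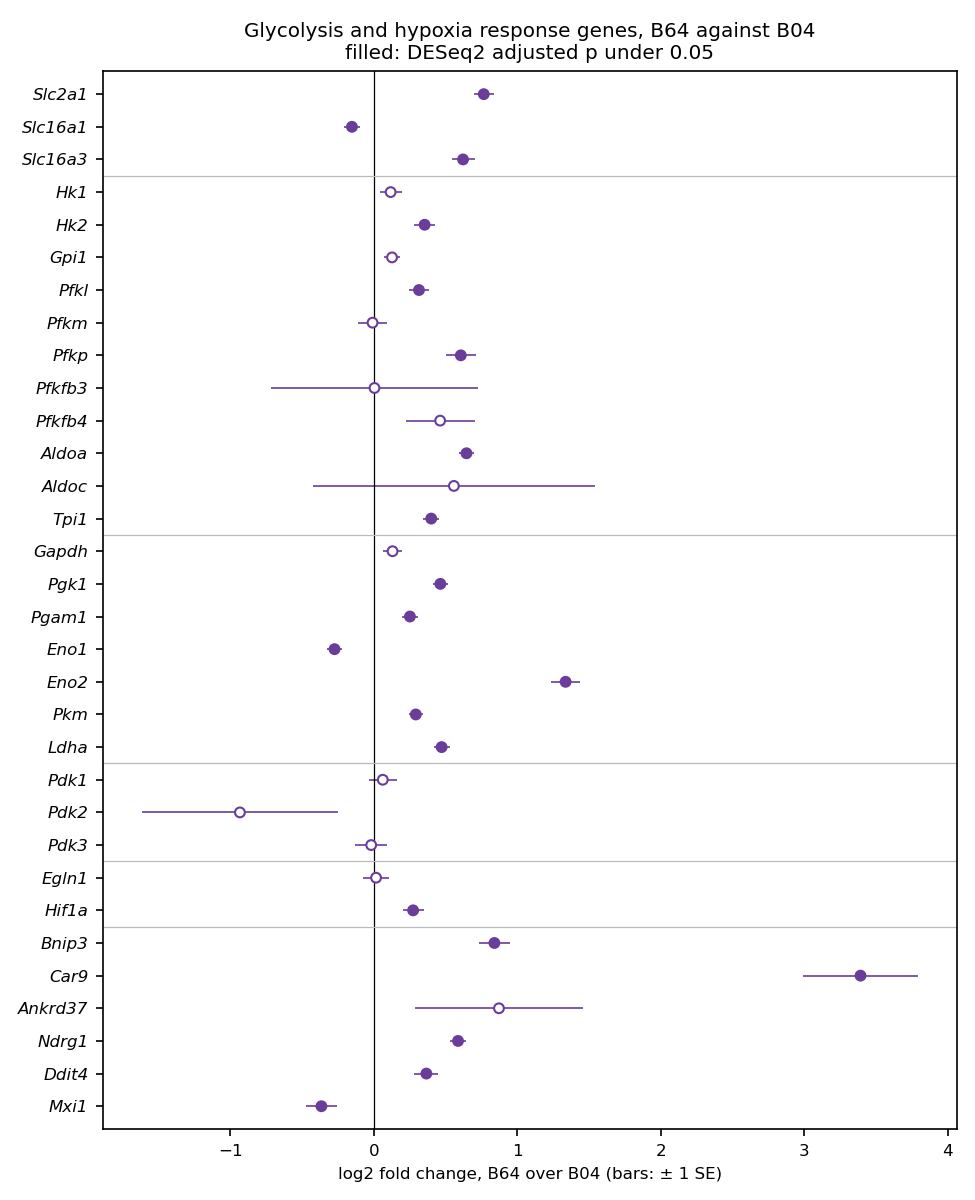
Log2 fold change of the 32 tested members in B64 relative to B04, with bars of 1 SE, filled where the DESeq2 adjusted p is under 0.05. Of the 20 filled points, 17 lie to the right of 0, from Pgam1 at 0.25 to Car9 at 3.39, and Slc16a1, Eno1 and Mxi1 lie to the left.

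The pyruvate dehydrogenase kinases hold back the entry of pyruvate into the citric acid cycle. Pdk1, the HIF-induced form, had 1344 and 1424 normalized counts in parental, 1244 and 1418 in B04 and 1350 and 1427 in B64. All lines overlapped, with log2 fold changes of -0.06 (SE 0.10, adjusted p = 0.77) in B04 and 0.0045 (SE 0.10, adjusted p = 0.99) in B64. Pdk3 fell in both clones, by 0.47 on the log2 scale in B04 (SE 0.11, adjusted p = 0.00016) and by 0.49 in B64 (SE 0.11, adjusted p = 0.00014), although the latter was not called with fragment-length class as a block. Pdk2 had 11.6 to 26.5 normalized counts and was not called, and Pdk4 had 0 counts in every library, which allows up to 3 counts per library.

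Of 105 other genes of these pathways, 82 were tested. In B04 relative to parental, 16 were called higher and 16 lower, in B64 relative to parental 14 higher and 10 lower, and in B64 relative to B04 17 higher and 15 lower. The shares called, 39.0%, 29.3% and 39.0%, were above the 24.1%, 16.3% and 24.3% of all genes tested. Abundant genes had 38%, 25.2% and 38.2% called. They are not a like background, because some of these pathway genes averaged fewer than 1000 normalized counts. No direction prevailed as it did in the members in B64. Among other hypoxia targets, Ero1l, an oxidase that forms disulfide bonds in the endoplasmic reticulum, had 11975 and 11683 normalized counts in parental, 10533 and 10238 in B04 and 21950 and 21825 in B64. It was higher in B64 by 0.89 relative to parental (SE 0.05, adjusted p = 1.5e-68) and by 1.08 relative to B04 (SE 0.05, adjusted p = 9.4e-101). Hmox1, heme oxygenase, fell in B04 (-0.53, SE 0.08, adjusted p = 5.7e-11) and rose in B64 (0.62, SE 0.07, adjusted p = 6.7e-15). Plod2, a collagen lysyl hydroxylase, fell in B04 (-0.82, SE 0.13, adjusted p = 5.0e-09). Bnip3l, a mitophagy receptor related to Bnip3, rose in both clones, by 0.50 in B04 (SE 0.09, adjusted p = 1.5e-07) and 0.54 in B64 (SE 0.09, adjusted p = 2.1e-08). Of the 27 tested genes of this list, 5 were higher and 6 lower in B04, 7 higher and 4 lower in B64, and 8 higher and 5 lower in B64 relative to B04.

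In the HIF pathway itself, Vhl, the ubiquitin ligase subunit that removes hydroxylated HIF alpha, was lower in B64 than in the parental line (-0.57, SE 0.14, adjusted p = 0.00064) and than in B04 (-0.62, SE 0.14, adjusted p = 9.9e-05). Its normalized counts were 539.0 and 571.4 in parental, 558.2 and 590.4 in B04 and 385.1 and 361.7 in B64. Arnt2, a HIF beta subunit, was higher in B04, at 182.4 and 176.1 compared with 63.9 and 61.7 in the parental libraries (1.51, SE 0.29, adjusted p = 2.1e-06). Eloc and Cul2, which work in the same ligase complex as Vhl, fell in B04 by 0.42 (SE 0.10, adjusted p = 0.00015) and 0.33 on the log2 scale (SE 0.09, adjusted p = 0.0016). Rbx1, of the same complex, rose in both clones, by 0.21 in B04 (SE 0.08, adjusted p = 0.037) and 0.33 in B64 (SE 0.08, adjusted p = 0.00057), and Vhl in B04 gave 0.05 (SE 0.14, adjusted p = 0.87). Of the 11 tested genes of this list, 2 were higher and 4 lower in B04, and 2 higher and 1 lower in B64. Among all genes tested, 24.1% and 16.3% were called in these 2 comparisons.

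Genes that feed from or into glycolysis gave mixed results. Their counts stand beside 24.1% of all genes tested called in B04 and 16.3% in B64. Among sugar transporters and glucose-sensing genes, 3 of 10 were higher and 2 lower in B04, including the transporter gene Slc2a6 (1.86, SE 0.33, adjusted p = 2.7e-07) and, in the lower direction, Bsg (-0.44, SE 0.07, adjusted p = 3.1e-09), whose product escorts the lactate carriers to the cell surface. In B64 only Txnip, an inhibitor of glucose uptake, was called (0.42, SE 0.08, adjusted p = 8.7e-07). G6pdx, the entry enzyme of the pentose phosphate pathway, rose in both clones, by 0.38 in B04 (SE 0.06, adjusted p = 5.1e-08) and 0.52 in B64 (SE 0.06, adjusted p = 1.2e-14). That list of 8 genes had 3 higher and 1 lower in B04 and 1 higher and 1 lower in B64. Among 10 pyruvate entry genes, 2 were higher and 2 lower in B04, with Pdp1, which reverses the action of the kinases, at 0.70 (SE 0.12, adjusted p = 8.4e-08), and 1 was higher and 2 lower in B64. Of 16 other glycolysis and glycogen genes, 1 was higher and 1 lower in B04, and 2 were higher and 2 lower in B64, led by Eno3 (0.32, SE 0.06, adjusted p = 6.7e-06) and by Pygb, a glycogen phosphorylase, in the lower direction (-0.39, SE 0.09, adjusted p = 0.00015).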

How the data were processed

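RNA-seq libraries of 6 samples were analysed, 2 each from the parental CT26 line, B04 and B64, grouped by the sample titles. The authors aligned paired reads to mm10 with STAR and quantified genes with RSEM, and deposited an expected count for each gene, in which RSEM shares ambiguous reads among the genes they fit, along with gene length and effective length. The deposited TPM values, scaled by the authors' RSEM run to effective length and library total, were used for markers and as an alternative. FPKM values were not used, and the annotation release is not given in the sources used here. Symbols and coordinates come from GENCODE M21, which named 53620 of 53801 identifiers. The counting is not stated to use strand, so antisense partners cannot be told apart.

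Rounded expected counts went into DESeq2 (the tool of the study's methods, here version 1.42.0 under R 4.3.3), in a single fit of all 6 libraries with group as the only term, a Wald test, independent filtering, Benjamini-Hochberg adjustment over all genes tested, a threshold of 0.05 and no shrinkage. Adjusted p-values in the text are from this fit unless another tool is named. Normalized counts are divided by DESeq2 size factors and, to compare genes, by the mean RSEM length. Values were given per library for members called with an absolute log2 fold change of at least 0.5 and for Gapdh, Hif1a, Slc2a1, Hk2, Ldha and Pdk1. From each other list at most 3 called genes per comparison were eligible to be named, those with the smallest adjusted p. Some genes that met this rule are not reported here. Promoters were shown for up to 4 hypoxia response, kinase or transporter genes with the largest called differences that averaged 100 or more normalized counts. Copies are annotated genes elsewhere that share at least 50 stretches of 75 bases with a member. A count of at most 3 in a library was taken as the floor, which covers counting error only.

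The members and lists were chosen with earlier results of these data known. Summing members with copies, and the background of genes averaging 1000 or more normalized counts, were added after seeing the data. Other alternatives covered edgeR's quasi-likelihood test (version 4.0.16), TMM factors, low-count filters, limma (version 3.58.1) on log2(TPM + 1) and log2(TPM + 0.1) of genes reaching 1 TPM, an effective-length offset, blocks for replicate letter and fragment-length class (divided at 260 bases), a threshold of 0.01 and leaving out each library. Scripts were tested on simulated data. Replicates were not copies of each other, with a chi-square per degree of freedom of 5.09 to 6.81 within groups and 24.8 to 38.7 between groups.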

Additional observations from a re-analysis of the deposited data

Results flagged for a closer look

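The effects of the clones relative to the parental line differed, by the direct DESeq2 test of B64 against B04, for 20 of the 32 tested members. The same test called 24.3% of all 12855 genes tested, and 38.2% of the genes averaging 1000 or more normalized counts. The largest difference was that of Car9, at 3.39 on the log2 scale, followed by Eno2 at 1.34, Bnip3 at 0.84 and Slc2a1 at 0.77. Aldoa differed by 0.65, Slc16a3 by 0.62, Pfkp by 0.61 and Ndrg1 by 0.59. Ldha was 0.47 and Pgk1 0.46 higher in B64, Tpi1 0.40, Ddit4 0.37, Hk2 0.35 and Pfkl 0.31. Smaller differences were those of Pkm at 0.29, Hif1a at 0.27 and Pgam1 at 0.25. Slc16a1 at -0.15, Eno1 at -0.27 and Mxi1 at -0.37 were lower in B64. Groups of 2 libraries are too small for a test of single outlying libraries.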

How the results depend on the processing

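No called change of a member reversed direction under any alternative run. Among values that were not called, some turned sign with fragment-length class as a block, such as Car9 in B64 relative to parental, from -0.13 to 1.29 (SE 0.84). For the 27 changes of members given by library that were recomputed under 18 alternatives, 437 of 486 values kept direction and call and 49 kept direction only. Of all member calls, those made under every alternative numbered 8 of 13 in B04 relative to parental, 5 of 22 in B64 relative to parental and 13 of 20 between the clones. In B64 relative to parental the count of 22 members became 5 with fragment-length class as a block, 14 with the effective-length offset and 14 by limma on log2(TPM + 0.1). The shares of all genes called in these fits were 2.64%, 13% and 10.8%, beside 16.3% in the main fit. Leaving out each library gave 11 to 12 members in B04 relative to parental, 12 to 20 in B64 relative to parental, with 12 without parental replicate A and 13 without B64 replicate B, and 17 to 20 between the clones. The shares of all genes called were also lower in each of these fits than in the main fit. For the other pathway genes the counts of 32, 24 and 32 became 21, 6 and 21 with the fragment-length block, beside 12.8%, 2.64% and 13.4% of all genes. In B64 relative to parental they became 15 with the effective-length offset, 13 by limma on log2(TPM + 1) and 13 on log2(TPM + 0.1), and between the clones 20 and 19 by limma. Leaving out a library raised none of the counts of 32, 24 and 32. The cause of these changes was not tested. Fits that leave out a library also rest on fewer libraries. A replicate block by letter gave 13, 21 and 20 called members, beside 21.9%, 13.7% and 21.7% of all genes. Same-lettered libraries correlated by 0.11 (parental and B04), 0.01 (parental and B64) and -0.05 (B04 and B64) in their deviations, so the letter was not used as pairing. Genes with under 30 normalized counts, such as Pdk2, Aldoc and Pfkfb3, had SEs of 0.67 to 0.98. Differences of about that size were not detectable at this depth. Pdk2 in B64 relative to B04, at -0.93 (SE 0.68, adjusted p = 0.37), exceeded its SE and was not called.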
